A study of Homo sapiens with 12 samples.

Results

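The classical cadherins CDH1, CDH2, CDH3, CDH4 and CDH11 and the catenins CTNNA1, CTNNB1, CTNND1 and JUP were followed in WT and CRE-deleted (ΔCRE) MDA-MB-231 cells. They were taken by gene symbol from the deposited expression table and make up 9 of its 24331 features. The set was chosen by the FPKM of CDH11, which lies far lower in ΔCRE than in WT cells, so that difference is given below as a description without a test. MDA-MB-231 is a human breast cancer line of mesenchymal-like appearance. ΔCRE cells (labelled KO) lack by CRISPR/Cas9 a part, with NFAT and NF-κB sites, of a core regulatory element in the ETS1 promoter. The rest of the element was not targeted. PMA is an activator of protein kinase C, and Ionomycin raises cytosolic calcium. WT and ΔCRE cells were left untreated (0 h) or given PMA together with Ionomycin for 6 or 24 h. Each of these 6 groups held 2 libraries, 12 in all. The sources used here do not say from how many clones the ΔCRE libraries came, so a clone and the deletion cannot be told apart.

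Cadherins are membrane proteins that bind the same or a related cadherin on the neighbouring cell in a calcium-dependent manner. Their cytoplasmic tail binds p120-catenin (CTNND1), which keeps the cadherin at the cell surface, and either β-catenin (CTNNB1) or plakoglobin (JUP), and the latter bind α-catenin (CTNNA1), the link to actin. β-catenin that is not held at junctions also acts with TCF factors in transcription. Epithelial cells are marked by E-cadherin (CDH1), while mesenchymal cells and invasive carcinoma cells often carry N-cadherin (CDH2) or cadherin-11 (CDH11) instead.

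Levels are FPKM, fragments scaled to the length of the transcript and to the number of mapped fragments, and can therefore be compared between genes. The number of fragments is not kept in FPKM, so the depth of the libraries is unknown. The library labelled ΔCRE 0 h replicate 1 stood apart from the other 11. Its summed FPKM was 1423335, against 566255 to 651080 in the others, and across features its correlation with its replicate was 0.867, against 0.978 to 0.984 for the other replicate pairs. It is shown apart throughout, and the comparisons rest on the other 11 libraries unless stated, with 1 ΔCRE library at 0 h that is assumed to vary like the other groups. Differences were tested on log2(FPKM + 1) with limma, with Benjamini-Hochberg adjustment over the 11256 features with a mean of at least 1 FPKM, and are called at an adjusted p under 0.05. A fold change on this scale understates that of genes with a low level. Statements that the libraries of groups did or did not overlap, or lay above or below each other, are descriptions. The share of all features whose groups separate in this way was not counted. Fewer cells of a type and less RNA per cell cannot be told apart in such bulk samples. The targeted gene, ETS1, was found in WT cells with 24.0 and 23.7 FPKM at 0 h, 139.2 and 145.2 at 6 h and 36.2 and 39.7 at 24 h. ΔCRE cells held 16.5 FPKM of ETS1 at 0 h, 62.8 and 62.2 at 6 h and 29.3 and 30.7 at 24 h, below both WT libraries at each time. In the library apart ETS1 was 5.08 FPKM. VIM, a defining gene of mesenchymal cells, lay between 1543 and 2539 FPKM in the 11 libraries, and the oestrogen receptor ESR1 and the progesterone receptor PGR were listed at 0.00894 FPKM or less. Other luminal genes were present, with ERBB2 at 9.68 to 15.4, GATA3 at 1.76 to 3.32 and FOXA1 at 0.635 to 1.79 FPKM. So were the epithelial genes KRT8 (269 to 513 FPKM), KRT18 (347 to 550), KRT19 (32.5 to 106) and CLDN4 (15.7 to 33.5). Of 13 epithelial and gut epithelium genes listed, 6 stayed under 1 FPKM in all 11 libraries.

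When all 12 libraries entered the model, the spread assigned to every group grew, and of the members' calls given below only those of CDH4 and CDH11 between 24 and 0 h in WT cells were kept. No difference between ΔCRE and WT cells was called for the members other than CDH11 in that fit, where CDH4 had an adjusted p of 1.0 (limma) at both 6 and 24 h. None of the calls between genotypes named below for genes of the other lists was kept in it either, and of those over time in WT cells only PKP4 and EVPL between 24 and 0 h were. Each result below is therefore one of the 11 libraries.

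CDH11 rose with stimulation in WT cells and lay far lower in ΔCRE cells, where its values also rose. Its feature lies on chromosome 16 of hg19 from 64980683 to 65155919 and spans the gene, on the minus strand. In WT cells it read 7.62 and 10.1 FPKM at 0 h, 14.3 and 12.5 at 6 h and 20.7 and 22.2 at 24 h. In ΔCRE cells it read 0.653 FPKM at 0 h, 1.13 and 1.16 at 6 h and 1.75 and 1.93 at 24 h, with 0.376 in the library apart. Every ΔCRE library thus lay below every WT library, the highest ΔCRE value being a 24 h and the lowest WT value a 0 h library. The mean of the ΔCRE libraries was 7.36% of that of the WT libraries at 0 h, 8.54% at 6 h and 8.59% at 24 h. On the log2(FPKM + 1) scale the differences at 0, 6 and 24 h were −2.57, −2.74 and −2.98.

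The response of CDH11 over time, which did not enter the choice of the genes, was tested. CDH11 rose in WT cells between 0 and 6 h by a log2 fold change of 0.55 (standard error 0.12, adjusted p = 0.00583, limma) and between 0 and 24 h by 1.20 (standard error 0.12, adjusted p = 7.45e-05, limma). The mean FPKM at 24 h was 2.42-fold that at 0 h in WT cells and 2.82-fold in ΔCRE cells, which had 1 library at 0 h. In ΔCRE cells CDH11 rose between 6 and 24 h by 0.40 (adjusted p = 0.0218, limma), with a mean FPKM 1.61-fold higher, beside a WT change of 0.64 (adjusted p = 0.00279, limma) and a 1.60-fold higher mean. The changes from 6 to 24 h differed between the genotypes by −0.24 (95% interval −0.62 to 0.15, adjusted p = 0.875, limma). The ΔCRE rise was carried by levels near 1 to 2 FPKM and its call was lost without each one of the 4 ΔCRE libraries at 6 and 24 h, with an adjusted p of 0.0829 and 0.0703 without replicates 1 and 2 of 6 h and of 0.0514 and 0.102 without those of 24 h (limma). It was also lost with quantile normalization (log2 fold change 0.25, adjusted p = 0.0994, limma). The WT rise by 6 h had an adjusted p of 0.051 (limma) without WT 6 h replicate 1.

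CDH4 (R-cadherin, known from the retina and nervous system) moved the other way, falling with stimulation in both genotypes, and it was higher in ΔCRE cells. Its feature lies on chromosome 20 of hg19 from 59827482 to 60515673. WT cells held 19.0 and 18.5 FPKM at 0 h, 15.5 and 14.1 at 6 h and 8.24 and 8.31 at 24 h. ΔCRE cells held 23.3 FPKM at 0 h, 19.7 and 17.9 at 6 h and 11.5 and 10.6 at 24 h, and the library apart 13.4. At each time the ΔCRE libraries lay above both WT libraries, and within each genotype the 24 h libraries lay below all others.

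On the log2 scale CDH4 had fallen by 0.32 in WT cells after 6 h (standard error 0.073, adjusted p = 0.00709, limma) and by 1.09 after 24 h (standard error 0.073, adjusted p = 7.94e-06, limma). From 6 to 24 h it fell by 0.77 in WT cells (adjusted p = 9.49e-05, limma) and by 0.71 in ΔCRE cells (adjusted p = 0.000113, limma). These 2 changes differed by 0.05 (95% interval −0.18 to 0.29, adjusted p = 0.995, limma). The mean FPKM in ΔCRE cells was 1.24-fold that of WT cells at 0 h, 1.27-fold at 6 h and 1.33-fold at 24 h. The log2 fold changes were 0.30 at 0 h (adjusted p = 0.167, limma), 0.32 at 6 h (standard error 0.073, adjusted p = 0.0282, limma) and 0.38 at 24 h (standard error 0.073, adjusted p = 0.0213, limma). Single libraries decided these calls. At 6 h the adjusted p was 0.126 and 0.055 without ΔCRE 6 h replicates 1 and 2, 0.0688 and 0.169 without WT 6 h replicates 1 and 2, and 0.0534 and 0.0529 without WT 24 h replicates 1 and 2. At 24 h it was 0.12 and 0.0692 without ΔCRE 24 h replicates 1 and 2, and 0.139 and 0.105 without WT 24 h replicates 1 and 2 (all limma). The direction was the same in each of these fits. The WT fall at 6 h had an adjusted p of 0.0563 (limma) without WT 6 h replicate 2.

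The other 3 cadherins were low or absent and did not pass the filter of 1 FPKM. In WT cells CDH3 (P-cadherin, of basal epithelial cells, chromosome 16 of hg19, 68678151 to 68732957) read 1.18 and 1.11 FPKM at 0 h, 0.563 and 0.303 at 6 h and 0.486 and 0.609 at 24 h. ΔCRE cells held 1.74 FPKM of CDH3 at 0 h, 0.668 and 0.764 at 6 h and 0.741 and 0.666 at 24 h. Its 0 h libraries were the highest in each genotype, and the ΔCRE libraries lay above the WT libraries at each time. In the fit without a filter CDH3 fell in WT cells by 0.59 at 6 h (adjusted p = 0.00354, limma) and by 0.47 at 24 h (adjusted p = 0.00672, limma), while its differences of 0.27 at 6 h and 0.14 at 24 h between ΔCRE and WT cells had adjusted p-values of 0.169 and 0.51 (limma). CDH1 (chromosome 16 of hg19, 68771195 to 68869444) was listed at 0 in 8 of the 11 libraries. The 3 libraries with a value above 0 were the 0 h libraries, with 0.0246 and 0.0129 FPKM in WT and 0.0318 in ΔCRE cells. CDH2 (chromosome 18 of hg19, 25530930 to 25757445) did not exceed 0.0933 FPKM in the 11 libraries. CDH1 and CDH2 were thus both near 0 in WT and ΔCRE cells at all times, with the library apart, described at the end, as the exception for CDH1.

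Because CDH11 and CDH4 moved in opposite directions, the makeup of the cadherin transcripts shifted. The FPKM of the 5 cadherins summed to between 26.9 and 31.2 in the 6 WT libraries. In these libraries CDH11 held 27.3% and 34.0% of the sum at 0 h, 46.9% and 46.5% at 6 h and 70.3% and 71.3% at 24 h. CDH4 held 68.2% and 62.2% at 0 h, 51.0% and 52.3% at 6 h and 28.0% and 26.7% at 24 h. WT cells therefore went from more CDH4 than CDH11, with a ratio of 2.50 and 1.83 at 0 h, to less, with 0.399 and 0.374 at 24 h, and in neither gene did the 0 and 24 h libraries overlap. In ΔCRE cells the sum was 25.7 FPKM at 0 h, 21.6 and 19.8 at 6 h and 14.0 and 13.3 at 24 h, below the WT libraries at each time. CDH11 made up 2.54% of it at 0 h, 5.23% and 5.87% at 6 h and 12.5% and 14.6% at 24 h. Of these 5 cadherins CDH4 remained the main one in ΔCRE cells at all times, with 79.8% to 91.2% of the sum. The shares and sums are descriptions, since the CDH11 difference that chose the genes is part of them.

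β-catenin and plakoglobin, close relatives that bind the same site on the cadherin tail, are both shown with their promoters because they parted at 6 h in WT cells, CTNNB1 rising (a call that other scalings did not keep) and JUP falling. The sequences, from 250 bases before to 50 bases after the start of transcription, come from RefSeq on GRCh38.p14, where a promoter was found for CTNNB1, JUP, CTNNA1, CDH2 and CDH4, 5 of the 9 genes. Capitals mark GGAA on either strand, the core shared by ETS and NFAT sites, and overlapping matches would each be counted.
CTNNB1, chr3:41199255-41199554, plus strand: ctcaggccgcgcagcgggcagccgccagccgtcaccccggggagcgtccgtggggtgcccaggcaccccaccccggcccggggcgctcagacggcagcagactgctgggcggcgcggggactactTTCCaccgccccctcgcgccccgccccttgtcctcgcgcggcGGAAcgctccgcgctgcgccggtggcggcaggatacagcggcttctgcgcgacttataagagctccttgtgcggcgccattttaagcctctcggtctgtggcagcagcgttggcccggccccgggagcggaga
JUP, start 1, chr17:41786662-41786961, minus strand: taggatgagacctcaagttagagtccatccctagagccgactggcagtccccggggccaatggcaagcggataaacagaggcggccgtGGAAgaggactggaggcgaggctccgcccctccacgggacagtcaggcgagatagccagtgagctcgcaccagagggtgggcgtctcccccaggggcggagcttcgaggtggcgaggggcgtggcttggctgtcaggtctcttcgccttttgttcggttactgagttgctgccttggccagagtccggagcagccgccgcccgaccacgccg
JUP, start 2, chr17:41785927-41786226, minus strand: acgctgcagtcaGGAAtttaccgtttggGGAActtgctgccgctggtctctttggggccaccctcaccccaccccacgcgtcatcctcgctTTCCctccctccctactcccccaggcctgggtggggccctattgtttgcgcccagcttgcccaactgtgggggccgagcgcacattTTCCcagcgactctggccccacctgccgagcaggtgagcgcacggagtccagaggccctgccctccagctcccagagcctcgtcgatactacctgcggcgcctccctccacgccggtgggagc
The CTNNB1 window held 2 matches, a number reached or passed by 83.8% of the 35116 promoters of this length, and the JUP windows held 1 and 4, reached or passed by 95.5% and 46.0%. TGANTCA, the AP-1 motif, which does not contain GGAA, was found on neither strand of the 3 windows and in 7.71% of all promoters. A match is a description of the letters and not a bound site.

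CTNNB1, on chromosome 3 of hg19 from 41240942 to 41281939, first rose and then fell. In WT cells it read 156.1 and 153.4 FPKM at 0 h, 176.7 and 186.0 at 6 h and 126.5 and 132.4 at 24 h. In ΔCRE cells it read 154.4 FPKM at 0 h, 184.2 and 171.3 at 6 h and 141.6 and 146.4 at 24 h, with 122.7 in the library apart. The 6 h libraries were the highest and the 24 h libraries the lowest in both genotypes. WT cells showed a rise of 0.23 at 6 h (standard error 0.056, adjusted p = 0.0113, limma) and a fall of 0.48 from 6 to 24 h (standard error 0.056, adjusted p = 0.000265, limma), ending 0.26 below 0 h on the log2 scale (adjusted p = 0.00499, limma). From 6 to 24 h CTNNB1 fell by 0.30 in ΔCRE cells (adjusted p = 0.00253, limma), and the difference from the WT fall was 0.18 (95% interval 0.0005 to 0.36, adjusted p = 0.711, limma). The rise at 6 h was smaller after rescaling to TPM, 0.105 (adjusted p = 0.157, limma), and with quantile normalization, 0.103 (adjusted p = 0.193, limma). It had an adjusted p of 0.0505 without WT 0 h replicate 2 and of 0.0773 without WT 6 h replicate 2 (limma). Quantile normalization also reduced the ΔCRE fall to 0.12 (adjusted p = 0.122, limma).

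Between genotypes CTNNB1 was close. The log2 fold change of ΔCRE against WT cells was −0.00 at 0 h (95% interval −0.16 to 0.15), −0.03 at 6 h (95% interval −0.16 to 0.10) and 0.15 at 24 h (95% interval 0.02 to 0.28, adjusted p = 0.162, limma). At 24 h both ΔCRE libraries lay above both WT libraries, although the difference was not called, and at 6 h the genotypes overlapped.

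JUP, on chromosome 17 of hg19 from 39910859 to 39942964, fell early and partly came back. WT cells held 24.2 and 24.3 FPKM at 0 h, 13.9 and 11.9 at 6 h and 17.4 and 16.95 at 24 h. ΔCRE cells held 29.0 FPKM at 0 h, 13.7 and 13.2 at 6 h and 16.5 and 14.8 at 24 h. The 3 times did not overlap within either genotype. JUP fell in WT cells by 0.87 at 6 h (standard error 0.080, adjusted p = 5.86e-05, limma), the largest change at 6 h among the 6 members tested, and rose again by 0.39 from 6 to 24 h (adjusted p = 0.00411, limma), to 0.47 below its 0 h level (adjusted p = 0.00126, limma). In ΔCRE cells the change from 6 to 24 h was 0.20 (adjusted p = 0.0662, limma), and it differed from the WT rise by −0.19 (95% interval −0.45 to 0.06, adjusted p = 0.82, limma). This ΔCRE change passed the threshold after rescaling to TPM (0.30, adjusted p = 0.0157, limma), with quantile normalization (0.23, adjusted p = 0.0386, limma), and without WT 6 h replicate 1 or 2 (adjusted p = 0.0417 and 0.0418, limma). The ratio of CTNNB1 to JUP in FPKM in WT cells was 6.46 and 6.30 at 0 h, 12.7 and 15.7 at 6 h and 7.26 and 7.81 at 24 h, and in ΔCRE cells it was 5.33, then 13.4 and 13.0, then 8.61 and 9.90. β-catenin transcripts thus outnumbered those of plakoglobin in all 11 libraries, and by the widest margin at 6 h in each genotype. JUP in ΔCRE against WT cells differed by 0.25 at 0 h (adjusted p = 0.284), 0.06 at 6 h (95% interval −0.12 to 0.24) and −0.13 at 24 h (95% interval −0.31 to 0.05, limma), where the ΔCRE libraries were the lower ones.

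CTNNA1, on chromosome 5 of hg19 from 138089107 to 138270723, was the highest of the 9 genes in every one of the 11 libraries. In WT cells it read 174.7 and 189.2 FPKM at 0 h, 216.2 and 227.6 at 6 h and 194.9 and 193.1 at 24 h. ΔCRE cells held 192.0 FPKM at 0 h, 229.7 and 215.1 at 6 h and 218.0 and 222.7 at 24 h. The ΔCRE libraries stayed at their 6 h level at 24 h, where they lay above both WT libraries without a call. CTNNA1 rose in WT cells by 0.29 at 6 h (standard error 0.059, adjusted p = 0.00468, limma) and fell by 0.19 from 6 to 24 h (adjusted p = 0.0264, limma). In ΔCRE cells the change from 6 to 24 h was −0.01 (95% interval −0.15 to 0.12), a difference from WT of 0.18 (95% interval −0.01 to 0.37, adjusted p = 0.74, limma). ΔCRE against WT cells gave 0.08 at 0 h, 0.00 at 6 h (95% interval −0.13 to 0.14) and 0.18 at 24 h (95% interval 0.05 to 0.32, adjusted p = 0.116, limma). Both WT calls depended on the scaling, since TPM gave a rise of 0.16 (adjusted p = 0.074) and a fall of 0.08 (adjusted p = 0.395), and quantile normalization a rise of 0.10 (adjusted p = 0.285) and a fall of 0.01 (adjusted p = 0.926, limma). The fall also lost its call without WT 6 h replicate 2, WT 24 h replicate 1 or WT 24 h replicate 2, with an adjusted p of 0.146, 0.0891 and 0.103 (limma).

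p120-catenin was measured only in a feature that the table names for both CTNND1 and TMX2, a thioredoxin-related membrane protein, on chromosome 11 of hg19 from 57479995 to 57586652. GENCODE places CTNND1 from 57520715 to 57587018 and TMX2 from 57480065 to 57508445, so the level cannot be divided between them. In WT cells this feature read 166.8 and 156.8 FPKM at 0 h, 153.0 and 157.7 at 6 h and 140.7 and 142.7 at 24 h. In ΔCRE cells it read 173.2 FPKM at 0 h, 166.3 and 153.5 at 6 h and 137.1 and 147.7 at 24 h. Levels were lowest at 24 h in both genotypes, and the genotypes overlapped at 6 and 24 h. The feature fell in WT cells by 0.19 between 0 and 24 h (standard error 0.062, adjusted p = 0.0296, limma), a call that was lost with quantile normalization (adjusted p = 0.0567) and without WT 0 h replicate 1, WT 24 h replicate 1 or WT 24 h replicate 2 (adjusted p = 0.133, 0.119 and 0.0824, limma). The change at 6 h was −0.06 as deposited, and was called after rescaling to TPM (−0.18, adjusted p = 0.0359) and quantile normalization (−0.20, adjusted p = 0.029, limma). ΔCRE cells changed by −0.17 from 6 to 24 h (adjusted p = 0.0527, limma), a value called without ΔCRE 6 h replicate 2 (adjusted p = 0.0433) or ΔCRE 24 h replicate 2 (adjusted p = 0.0468, limma). ΔCRE and WT cells differed by 0.10 at 0 h, 0.04 at 6 h (95% interval −0.10 to 0.18) and 0.01 at 24 h (95% interval −0.14 to 0.15).

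The order of levels in WT cells at 0 h was CTNNA1, the CTNND1 feature, CTNNB1, JUP, CDH4, CDH11, CDH3 and then CDH2 and CDH1. The means of the CTNND1 feature and CTNNB1, 161.8 ± 7.03 and 154.8 ± 1.93 FPKM (SD, n = 2), differed by about the SD of the former, and CDH1 and CDH2 could not be ranked. At 24 h CDH11 had passed both JUP and CDH4 in WT cells, with 21.4 ± 1.11 against 17.2 ± 0.333 and 8.28 ± 0.0474 FPKM (SD, n = 2). In ΔCRE cells CDH11 was at 1.84 ± 0.127 FPKM (SD, n = 2) at that time, and the order was JUP, CDH4, CDH11, CDH3. The summed FPKM of the 4 catenin features was 15.6 to 21.7 times that of the 5 cadherins in the WT libraries. In ΔCRE cells it was 21.3 times at 0 h, 27.5 and 27.9 times at 6 h and 36.6 and 40.1 times at 24 h. The catenin sum itself lay between 479.6 and 583.2 FPKM in WT cells and between 513.1 and 593.8 FPKM in ΔCRE cells.

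Of the 9 genes, 6 passed the filter and were tested. CDH11 aside, 1 of the remaining 5 was called between ΔCRE and WT cells at 6 h, when 9.83% of all features were called, and 1 at 24 h, when 6.33% were called. This was CDH4 on both occasions. At 0 h, where ΔCRE cells had 1 library, none was called by limma, with 1.69% of all features called. In WT cells 5 of 6 were called between 6 and 0 h (CDH11, CTNNA1 and CTNNB1 higher, CDH4 and JUP lower), beside 44.4% of all features. Between 24 and 0 h 5 of 6 were called (CDH11 higher, CDH4, CTNNB1, the CTNND1 feature and JUP lower), beside 54.6%, and between 24 and 6 h also 5 of 6 (CDH11 and JUP higher, CDH4, CTNNA1 and CTNNB1 lower), beside 46.8%. Of the 6 genes, 3 were called between 24 and 6 h in ΔCRE cells (CDH11 higher, CDH4 and CTNNB1 lower), beside 49.6% of all features. In none of the 6 was the change from 6 to 24 h called different by genotype in limma, where 0.16% of all features were. CTNNB1 alone of the 6 had an unadjusted p under 0.05 there (limma), as did 786 of all 11256 features. Rescaling to TPM came before the filter, so 11932 features were tested with it instead of 11256. It moved the median of all features between 0 and 6 h in WT cells to −0.118, from −0.001. The calls split into 1958 higher and 3666 lower, from 2620 higher and 2373 lower in the smaller set. The rises of CTNNA1 and CTNNB1 and the CTNND1 feature at 6 h depended on the rescaling, while CDH11, CDH4 and JUP kept their calls with it.

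**Figure D1:**
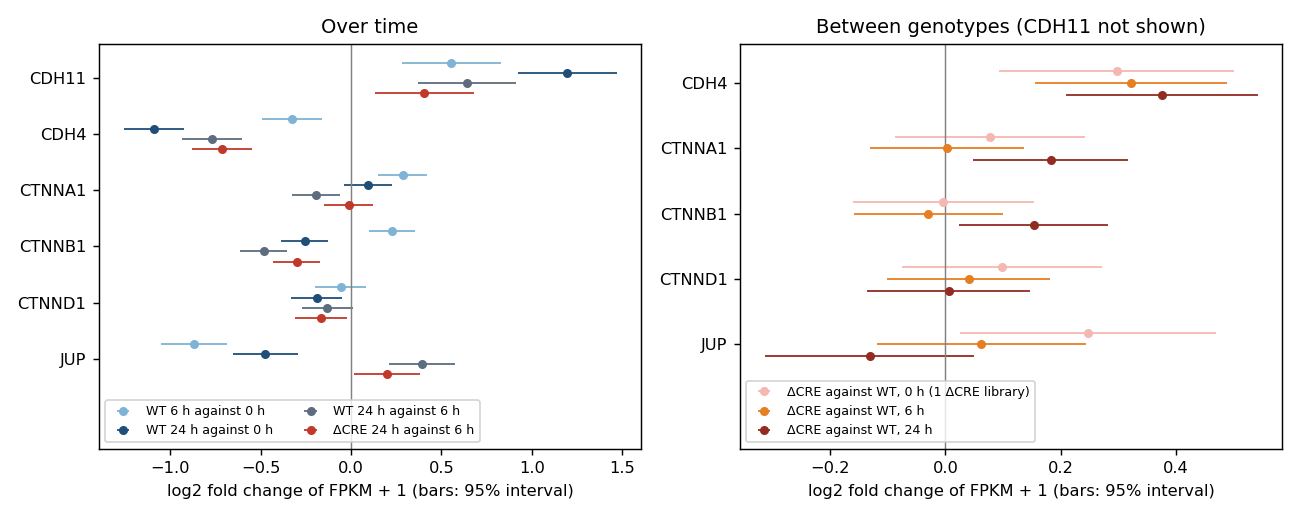
Log2 fold changes of FPKM + 1 with 95% intervals of the 6 members tested over time (left) and, without CDH11, between genotypes (right), from the limma fit of 11 libraries. Over time CDH11 lies to the right and CDH4 to the left of 0 in every comparison, and between genotypes CDH4 has the values farthest from 0, from 0.30 to 0.38.

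Further genes of cell adhesion were read from lists of the cadherin families and their partners. Of 17 other cadherins 16 stayed under 1 FPKM in all 11 libraries. The exception was CDH24, with 5.15 and 5.27 FPKM in WT cells at 0 h and between 3.31 and 6.05 FPKM in the 11 libraries, whose log2 difference of −0.38 between ΔCRE and WT cells at 6 h and −0.37 at 24 h had adjusted p-values of 0.0956 and 0.131 (limma). None of the 17 thus reached 7.62 FPKM, the lowest level of CDH11 in WT cells, in these 11 libraries. In ΔCRE cells CDH24 read 5.72 FPKM at 0 h, 4.74 and 3.75 at 6 h and 3.31 and 4.38 at 24 h. It was thus above CDH11 in each of these ΔCRE libraries, and it is not part of the cadherin sums and shares given before. Among 20 protocadherins and related large cadherins 5 were tested, and none was called between genotypes. In WT cells 4 of the 5 fell at 6 h, when 21.1% of all features were called lower. The median was −0.34 for the 5 and −0.001 for all features. FAT1, a giant atypical cadherin, fell from 23.4 and 25.1 FPKM at 0 h to 9.65 and 10.1 at 24 h in WT cells, a log2 fold change of −1.21 (adjusted p = 1.7e-05, limma), and from 21.6 and 17.4 at 6 h to 10.5 and 11.2 at 24 h in ΔCRE cells. PCDH7 fell by 1.04 over the same WT interval (adjusted p = 8.83e-05, limma).

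The catenin relatives and binding partners held 11 tested genes of 16. Between genotypes 1 was called higher at each time, VCL, and 1 was called lower at 6 h, PKP2, when 1.69%, 9.83% and 6.33% of all features were called at 0, 6 and 24 h. VCL encodes vinculin, which binds α-catenin under tension and also sits at focal adhesions. In WT cells it read 63.6 and 64.3 FPKM at 0 h, 52.2 and 49.9 at 6 h and 45.3 and 47.5 at 24 h, against 87.7 FPKM, 66.6 and 64.4, and 68.1 and 64.3 in ΔCRE cells. The ΔCRE libraries were above the WT libraries at each time, on the log2 scale by 0.45 at 0 h (adjusted p = 0.0143), 0.35 at 6 h (adjusted p = 0.00583) and 0.50 at 24 h (adjusted p = 0.00169, limma). The 0 h call was lost without WT 0 h replicate 1 or 2 (adjusted p = 0.057 and 0.0518), and the 6 h call without WT 6 h replicate 2 (adjusted p = 0.0524, limma). PKP2, a plakophilin of desmosomes, read 4.72 and 5.48 FPKM in WT and 3.88 and 3.57 in ΔCRE cells at 6 h (log2 fold change −0.37, adjusted p = 0.037, limma), a call that 8 of the 11 fits without 1 library did not keep, with an adjusted p of up to 0.204 without WT 6 h replicate 2. Over time 1 of the 11 rose and 5 fell in WT cells at 6 h, beside 23.3% of all features called higher and 21.1% lower. At 24 h against 0 h 1 rose and 6 fell, beside 26.5% of all features called higher and 28.2% lower. PKP3 fell by 0.63 at 6 h (adjusted p = 0.000953) and CTNNBIP1, an inhibitor of β-catenin and TCF binding, by 0.74 (adjusted p = 0.000548), while CTNNAL1, related to α-catenin, and PKP4 fell by 0.88 and 0.60 at 24 h (adjusted p = 0.00132 and 7.6e-05, limma).

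Desmosomes, the junctions in which JUP is a core component, gave 4 tested genes of 10. No gene of the 4 was called between genotypes. In WT cells 2 fell at 6 h and 2 at 24 h against 0 h, beside 21.1% and 28.2% of all features called lower. In WT cells DSC2, a desmosomal cadherin, read 2.78 and 2.998 FPKM at 0 h, 1.25 and 1.39 at 6 h and 2.29 and 2.32 at 24 h, which are changes of −0.75 at 6 h (adjusted p = 0.000725, limma) and 0.51 from 6 to 24 h on the log2 scale (adjusted p = 0.00473, limma). It was thus low at the time at which JUP was low. The desmosomal cadherin DSG2 fell by 0.34 (adjusted p = 0.0073, and 0.0583 without WT 24 h replicate 1, limma) and EVPL by 0.43 (adjusted p = 0.00277, limma) at 24 h. Of the nectins, adhesion receptors that lie beside cadherins in adherens junctions, 4 of 5 were tested, none was called between genotypes, and at 6 h in WT cells, beside 44.4% of all features called, 2 rose and 2 fell, among them PVR, which rose by 0.34 (adjusted p = 0.00501, limma), and PVRL3, which fell by 0.62 (adjusted p = 0.00202, limma).

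Of the β-catenin destruction complex and its transcription partners 14 of 16 genes were tested. At 6 h in WT cells 4 rose and 4 fell, with a median of −0.006 beside −0.001 for all features, of which 23.3% rose and 21.1% fell. AXIN1, a scaffold of the destruction complex, rose from 11.1 and 11.3 FPKM at 0 h to 20.1 and 18.4 at 6 h (log2 fold change 0.73, adjusted p = 3.27e-05, limma), and TCF7L2, a partner of β-catenin on DNA, fell by 0.63 (adjusted p = 0.00171, limma). TCF7 in WT cells read 1.51 and 2.11 FPKM at 0 h, 4.23 and 3.46 at 6 h and 1.47 and 1.91 at 24 h. From its high at 6 h it fell by 0.85 by 24 h (adjusted p = 0.00144, limma). Between genotypes only BCL9L, a coactivator, was called, 1 of 14 at 6 h beside 9.83% of all features, lower in ΔCRE cells by 0.36 on the log2 scale (adjusted p = 0.0266, limma), and without WT 6 h replicate 1 or 2, WT 24 h replicate 1 or ΔCRE 6 h replicate 2 the adjusted p was 0.183, 0.0647, 0.0501 and 0.151 (limma).

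Repressors of CDH1 numbered 7, of which 5 were tested. Between genotypes 1 was called at 0 h, 2 at 6 h and 1 at 24 h, all higher in ΔCRE cells, beside 1.69%, 9.83% and 6.33% of all features called in either direction. SNAI2 was higher in ΔCRE cells at each time and fell steeply with stimulation in both genotypes. In WT cells it read 7.84 and 7.86 FPKM at 0 h, 1.94 and 1.65 at 6 h and 1.45 and 1.08 at 24 h, against 12.3 FPKM, 3.37 and 3.57, and 2.46 and 2.38 in ΔCRE cells, with no overlap at any time. The log2 fold change of ΔCRE against WT cells was 0.59 at 0 h (adjusted p = 0.0495), 0.68 at 6 h (adjusted p = 0.00387) and 0.60 at 24 h (adjusted p = 0.00912, limma). At 0 h, where ΔCRE cells had 1 library, the call was lost in 5 of the other settings and without 8 single libraries, with an adjusted p of up to 0.137 without WT 0 h replicate 2. At 24 h it was 0.0598 without WT 24 h replicate 2 and 0.0596 and 0.064 without ΔCRE 24 h replicates 1 and 2 (limma). ZEB2, another repressor, was called higher in ΔCRE cells at 6 h (0.31, adjusted p = 0.0285), a call lost without WT 6 h replicate 1 or 2 (adjusted p = 0.138 and 0.125), ΔCRE 6 h replicate 1 or 2 (0.0975 and 0.0921), WT 24 h replicate 1 or 2 (0.0519 and 0.052) or ΔCRE 24 h replicate 1 (0.05, limma). At 6 h ZEB1 and SNAI1 had lower values in ΔCRE cells without being called. ZEB1 read 8.503 and 9.21 FPKM in WT and 6.72 and 7.38 in ΔCRE cells (log2 fold change −0.29, adjusted p = 0.094, limma). SNAI1 read 2.59 and 3.43 against 2.31 and 2.28 (−0.28, adjusted p = 0.202, limma). The lower values did not last to 24 h, when neither was called. SNAI1 then read 2.71 and 2.93 FPKM in WT and 3.44 and 3.42 in ΔCRE cells, and ZEB1 5.08 and 5.70 against 5.59 and 5.85. CDH1 itself was listed at 0 at 6 and 24 h in both genotypes.

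The marker lists describe the cells in which these levels were read. Of 13 epithelial and gut epithelium genes 7 were tested, and none was called higher and 2 lower in ΔCRE cells at both 6 and 24 h, when 6.22% and 3.97% of all features were called lower, namely CLDN7 (−1.06 and −1.16, adjusted p = 0.00327 and 0.00286) and KRT19 (−0.51 and −0.41, adjusted p = 0.0109 and 0.0352, limma). The KRT19 call was lost at 6 h without WT 6 h replicate 1 or ΔCRE 6 h replicate 2 (adjusted p = 0.0961 and 0.078), and at 24 h without 7 single libraries (adjusted p of up to 0.224 without WT 24 h replicate 1, limma). Of 6 mesenchymal-like genes, beside 9.83% and 6.33% of all features called at 6 and 24 h, 1 was called lower at 6 h, MSN (−0.49, adjusted p = 0.00121, limma), and at 24 h FN1 was higher (0.58, adjusted p = 0.00261) and MSN lower (−0.28, adjusted p = 0.0185, limma), the latter lost without any 1 of the 4 libraries of that time (adjusted p = 0.0749 to 0.118). Of 5 luminal genes 3 were tested and none was called between genotypes. The part of these genes' changes in the levels of cadherins and catenins was not tested.

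CDH11 was also set beside its chromosomal neighbours. Within 5 Mb of its start lay 94 features, of which 61 were tested. All 61 lay on 1 side of CDH11, at higher coordinates, the nearest of them (TK2) starting 1.56 Mb from its start, so no closer gene and none on the other side was tested. At 6 h 1 of them was called higher and 5 were called lower in ΔCRE than in WT cells, and at 24 h 2 were called higher, beside 9.83% and 6.33% of all features called in either direction, so that the neighbours' shares were near or below those of all features. The medians were −0.02 and −0.01. Their log2 fold changes lay between −0.93 and 0.26 after 6 h and between −0.53 and 0.24 after 24 h, none as low as that of CDH11. The genes whose log2(FPKM + 1) followed that of CDH11 most closely over the 11 libraries were SMCR8 (Pearson's r = 0.978), TUSC3 (0.962), CYP2J2 (0.961), DNMBP and UBTD1 (both 0.959). TUSC3 read 18.6 to 23.8 FPKM in the 6 WT libraries and 9.70 to 11.8 FPKM in the 5 ΔCRE libraries. These values are a description over libraries that share genotype and time.

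The library labelled ΔCRE 0 h replicate 1 had another set of cadherins. CDH1 read 52.3 FPKM there, against at most 0.0318 in the other 11, and CDH17, a cadherin of intestinal epithelium, 125.7 FPKM, against at most 0.0395. CDH3 read 6.09 FPKM, JUP 227.0 and the CTNND1 feature 208.1, each above the highest of the others, which were 1.74, 29.0 and 173.2 FPKM. The CTNND1 feature was thus 1.20 times that highest value. This is a smaller excess than that of the summed FPKM of the library, 1423335 against at most 651080 in the others. CTNNA1 and CTNNB1 were below the lowest of the others, at 155.4 and 122.7 FPKM. CDH1 made up 72.3% of the summed FPKM of the 5 cadherins, 72.3 FPKM in all, and JUP exceeded CTNNB1, with a ratio of CTNNB1 to JUP of 0.54. CDH11 was lowest of all 12 libraries, with 0.376 FPKM. All 13 epithelial and gut epithelium genes were more than 2 times their highest value in the other 11, including CDX2, VIL1 and CDX1, which were listed at 0 in those 11, and their sum was 11155 FPKM against 728 to 1129. With this library in the group, the 0 h difference of CDH4 between ΔCRE and WT cells turned from 0.30 to −0.08 and that of CTNNA1 from 0.08 to −0.07.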

How the data were processed

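RNA-sequencing libraries of MDA-MB-231 cells, WT or ΔCRE, were grouped by the genotype, time and replicate given in their labels, 2 per group. The authors prepared stranded mRNA libraries, aligned reads to hg19 with TopHat and deposited FPKM values made with Cufflinks. The gene annotation they used is not given in the sources used here. FPKM keep no fragment number, so depth is unknown and intervals reflect the spread between libraries only. Cutadapt, FastQC, Bowtie and Cuffdiff are also in the submitters' processing notes. A digit in the names of the columns for ΔCRE 6 h replicate 2 and ΔCRE 0 h replicate 2 stands where the labels have a letter.

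log2(FPKM + 1) of the 11256 features with a mean of at least 1 FPKM over 11 libraries, ΔCRE 0 h replicate 1 being left out, was fitted with limma 3.58.1 in R 4.3.3 (1 model of 6 groups, eBayes with trend, two-sided tests, Benjamini-Hochberg adjustment, threshold 0.05). The script was tested on simulated data. The members and gene lists were chosen with earlier results of these data known. Text names all members, ETS1, from each list up to 4 called genes with the largest changes, and genes needed to complete a count. The genes following CDH11 and single markers were named after their values were seen. Alternatives were all 12 libraries, a pseudocount of 0.1, no filter, a mean of at least 5 FPKM, quantile normalization, TPM, a replicate block, eBayes without trend and leaving out each library. Columns without a sample numbered 0.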

Additional observations from a re-analysis of the deposited data

Results flagged for a closer look

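The library labelled ΔCRE 0 h replicate 1 was left out of the comparisons of the report, entering only the fits of all 12 libraries given as an alternative. Of its values for the members and CDH17, 5 that passed 1 FPKM stood above the highest of the other 11. CDH2, near 0, also did, with 0.131 FPKM against at most 0.0933. The CTNND1 feature and CDH2 were only 1.20 and 1.41 times the highest of the others. The summed FPKM of this library, 1423335 against at most 651080, was higher by a larger factor. In this library CDH1 had 52.3 FPKM, CDH3 6.09 FPKM, the feature of CTNND1 and TMX2 208.1 FPKM, JUP 227.0 FPKM and the intestinal cadherin CDH17 125.7 FPKM. Beside them all 13 epithelial and gut epithelium genes were raised, with a sum of 11155 FPKM against 728 to 1129 in the other libraries, and the part of these genes in the 5 values was not tested. No group had the 4 libraries that a search for single outlying values needs, and the change of the 6 members tested between 6 and 24 h was not called different between the genotypes.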

How the results depend on the processing

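Group sizes of 2, a single ΔCRE library at 0 h and the unknown depth limit these results. With all 12 libraries the calls among all features fell to 17, 20 and 17 between genotypes at 0, 6 and 24 h, to 857, 1221 and 582 in WT cells for 6 against 0, 24 against 0 and 24 against 6 h, to 845 in ΔCRE cells and to 0 for the difference between genotypes over time. Member calls fell to 0 in each of these comparisons except 24 against 0 h in WT cells, where 2 were kept. The interaction gave 11 calls with quantile normalization and 8 without trend, instead of 18.

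Whether the replicate numbers pair the libraries was not settled. Correlations between groups of the libraries' deviations from their group mean ran from −0.068 to 0.202, the highest being that of WT 0 h and ΔCRE 24 h. The main fit held no replicate block. With the replicate block the calls among all features were 655, 1805 and 1407 between genotypes, instead of 190, 1107 and 712. Member calls with the block rose to 1 at 0 h (CDH4, 0.34) and to 5 for 24 against 6 h in ΔCRE cells, which adds JUP and the CTNND1 feature.

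Leaving out 1 library gave 106 to 159, 321 to 1097 and 165 to 717 calls between genotypes at 0, 6 and 24 h, 3492 to 4990, 4667 to 6148 and 3743 to 5408 over time in WT cells, 4246 to 5724 in ΔCRE cells and 3 to 21 for the interaction. Member calls ran from 0 to 1 at 6 and at 24 h between genotypes, 3 to 5, 4 to 5 and 4 to 5 over time in WT cells, 2 to 4 in ΔCRE cells and stayed at 0 for the interaction.

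With quantile normalization the CDH11 share at 6 h was 47.1% in WT and 6.27% in ΔCRE cells, instead of 46.7% and 5.55%. A pseudocount of 0.1 put the CDH11 difference between genotypes at −3.56, −3.44 and −3.47, and TPM put it at −2.92 at 0 h.

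Signs turned only for values that were not called, except those of VCL (−0.63) and CLDN7 (1.53) at 0 h with all 12 libraries. With those, ΔCRE against WT cells gave −0.078 for CDH4 and −0.073 for CTNNA1 at 0 h. TPM gave 0.010 for CTNNB1 at 0 h, −0.003 for CTNNA1 at 6 h and −0.018 for CTNND1 at 24 h, and quantile normalization −0.021 for CTNNA1 at 6 h and −0.024 for CTNND1 at 24 h. Quantile normalization turned CTNND1 to 0.041 from 6 to 24 h in WT and 0.013 in ΔCRE cells, and CTNNA1 in ΔCRE cells became 0.157 with it and 0.087 with TPM. Without single libraries the genotype difference ran from −0.016 to 0.009 for CTNNB1 at 0 h, at 6 h from −0.044 to 0.05 for CTNNA1, −0.081 to 0.023 for CTNNB1, −0.017 to 0.098 for CTNND1 and −0.042 to 0.166 for JUP, and at 24 h from −0.047 to 0.059 for CTNND1. CTNNA1 from 6 to 24 h in ΔCRE cells ran from −0.06 to 0.034, and the interaction from −0.013 to 0.12 for CDH4 and −0.092 to 0.023 for CTNND1. The causes were not tested.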
